A study of Mus musculus with 12 samples.

Results

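The ribosome biogenesis and nucleolar genes described here are a list of 50 genes chosen by name, of which 47 were measured on rows of their own among the 22180 mouse genes tested. The rows of Fbl (with Tulp4), Tsr1 (with Srr) and Mrto4 (with its pseudogenes) are shared with other genes, and these 3 members have no value. The measured members fall into 5 roles: 10 act in RNA polymerase I transcription or as nucleolar regulators, 2 are box C/D and 5 are box H/ACA proteins of small nucleolar ribonucleoproteins (snoRNPs), 13 mature the small ribosomal subunit and 17 the large one. RNA of sorted CD4+ T cells was read on 12 Affymetrix Mouse Gene 2.0 ST arrays, in 6 groups of 2 arrays named replicate 1 and B. The spleen donors were Foxp3.eGFP mice of C57BL/6 background, aged 8 weeks, and their GFP reporter serves to separate Foxp3+ regulatory (Treg) from Foxp3- effector (Teff) cells. Control Teff and control Treg cells were sorted fresh. Anti-CD3-CD28 Teff and Treg cells came from CD4+ cells kept for 3 days with antibodies to CD3 and CD28 at 2 µg/ml of each, which engage the T cell receptor and its costimulator. OX40L-JAG1 Teff and Treg cells came from CD4+ cells kept for 3 days with JAG1, a ligand of Notch, at 1 µg/ml and soluble OX40L, the ligand of OX40, at 5 µg/ml. Since fresh cells had no time in culture, culture and stimulus cannot be told apart in any comparison with them. Both cell types were cultured together as CD4+ cells, and the labels do not say whether a Treg and a Teff array come from the same dish. The labels do not say whether the 2 arrays of a group come from separate animals or dishes. A p-value here weighs a difference against the spread between such arrays alone, and that spread may be technical.

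Ribosomes are assembled in the nucleolus, where RNA polymerase I copies the ribosomal RNA genes and some assembly factors join the transcript while it is made. Box C/D and box H/ACA snoRNPs, each guided by a small nucleolar RNA (snoRNA), methylate or pseudouridylate the RNA, while the small subunit processome and the large subunit factors fold, cut and export the subunits. T cells raise this machinery when they leave rest and grow, and the transcription factor MYC is a known activator of many of its genes.

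Foxp3, the label check, was at 10.36 to 11.22 (log2 value) on the 6 Treg arrays and at 5.58 to 6.81 on the 6 Teff arrays. The OX40L-JAG1 Teff arrays stood apart. Their values were compressed, with an SD over genes of 1.71 and 1.49 against 1.95 to 2.19 on the other 10 arrays, their replicates correlated at 0.881 over genes against 0.984 to 0.994 elsewhere, and 11 of 12 myeloid and granulocyte markers had a group mean above 4.87, the lowest array median. Their summed log2 value over these markers was 83.4 and 92.9, against up to 78.2 in OX40L-JAG1 Treg and 49.9 to 62.5 in the other groups, and the sum over 7 T cell markers was 62.2 and 66.9 against 70.3 to 75.8. They enter every test through the shared spread, so counts are given with and without them; leaving out either one gave the same counts as leaving out both wherever they are no arm of the comparison. Other differences follow the groups: the Y-linked gene Kdm5d was at 5.84 to 6.40 in control cells, at 7.31 and 7.69 in OX40L-JAG1 Treg and at 2.57 to 3.56 in anti-CD3-CD28 cells, and the heat shock gene Hspa1a was at 10.85 to 11.61 in control cells and at 3.37 to 3.78 in anti-CD3-CD28 cells. Sex of the mice and handling of the cells therefore cannot be told apart from treatment here.

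The members were highest, as a set, in fresh Teff cells. The median log2 value over the 47 members was 7.91 and 8.05 on the control Teff arrays and 7.64 and 7.65 on the control Treg arrays. It was 7.54 and 7.53 in anti-CD3-CD28 Treg, 7.28 and 7.26 in OX40L-JAG1 Treg, 7.04 and 7.35 in anti-CD3-CD28 Teff, and 6.88 and 6.22 in OX40L-JAG1 Teff. Of the 47 members, 33 had their highest group mean in control Teff, 7 in control Treg, 3 in each anti-CD3-CD28 group and 1 in OX40L-JAG1 Teff. The lowest mean lay in OX40L-JAG1 Teff for 35 members; over the other 5 groups it lay in anti-CD3-CD28 Teff for 21, in OX40L-JAG1 Treg for 17, in anti-CD3-CD28 Treg for 7 and in control Teff for 2. These counts were not taken over all genes, so they have no background of their own. Genes of the members' level (mean log2 value from 6.74 to 7.77) were also lower than in control Teff. Their median difference was -0.21 in control Treg, -0.30 in anti-CD3-CD28 Teff and -1.07 in OX40L-JAG1 Teff, where 72.4% of them were called lower. In bulk samples such as these, fewer cells of a type and less RNA per cell cannot be told apart.

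**Figure D1:**
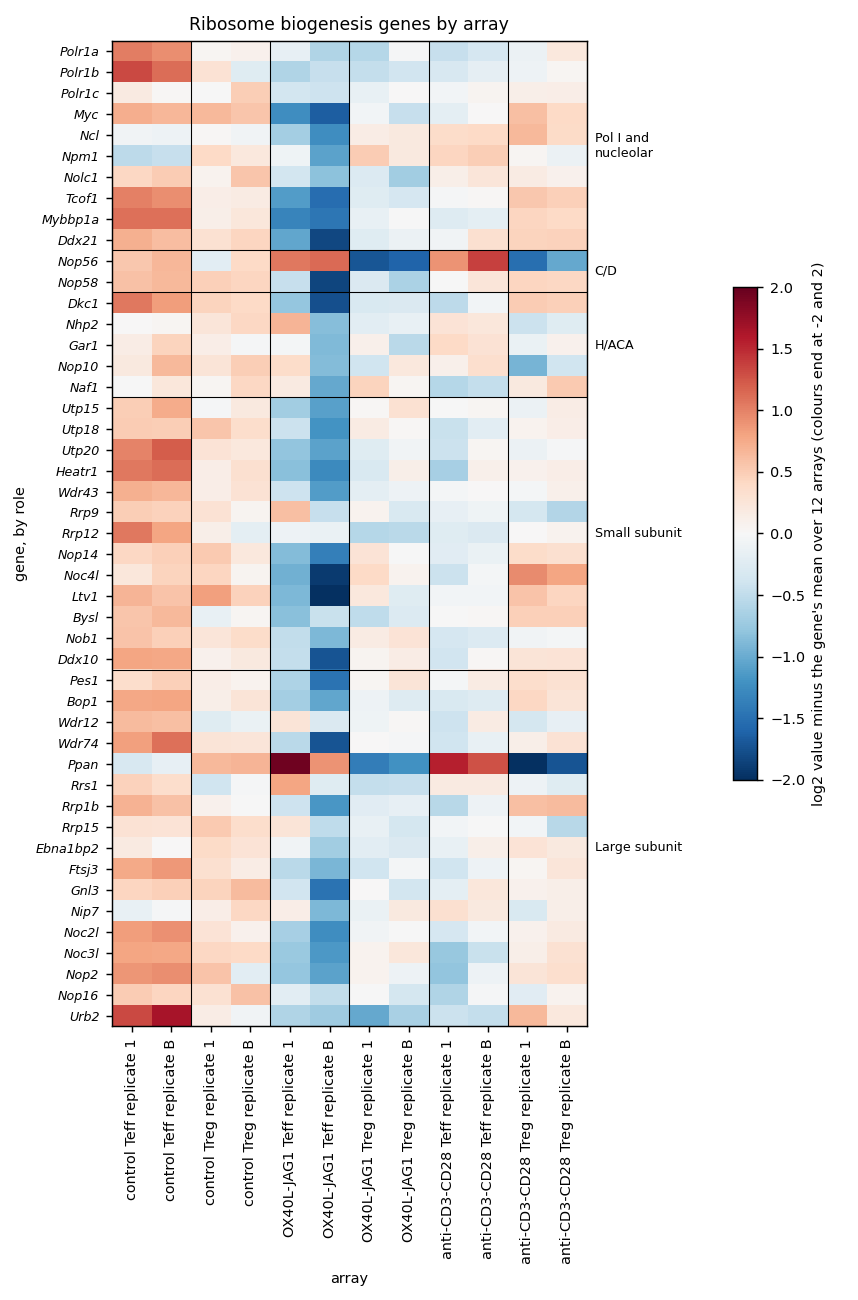
Deviation of each member's log2 value from its own mean over the 12 arrays, with genes in rows by role and arrays in columns; red is above and blue below that mean, and colours end at -2 and 2. The control Teff columns are red in most rows, with a median deviation of 0.57 and 0.62, and the OX40L-JAG1 Teff columns are blue in most rows, while the rows of Nop56 and Ppan follow another order.

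In Teff cells, 3 days of anti-CD3-CD28 left a large share of the members below their fresh level: 20 of 47 fell and 2, Npm1 and Ppan, rose, the latter pair on the row tested but not on their other row. Over all genes tested, 9.75% were lower and 5.44% higher at an adjusted p under 0.05 (limma, Benjamini-Hochberg over all genes). The median member difference was -0.68 on the log2 scale, against 0.07 over all genes and -0.30 over the 2798 genes at the members' level (mean log2 value from 6.74 to 7.77, the middle of the members' range), of which 24.2% were lower. With the OX40L-JAG1 Teff pair left out the members' count was 32 lower and 3 higher, beside 16.5% and 12.5% of all genes. It was 11 lower and 1 higher without control Teff replicate 1, and 9 lower and 1 higher without control Teff replicate B or without anti-CD3-CD28 Teff replicate 1. Of the 7 T cell markers 3 were lower in the same comparison, with a median difference of -0.54. Of the 8 B cell markers 4 were lower (median -0.59), of the 12 myeloid and granulocyte markers 3 were lower and 1 higher (median -0.18), of the 4 erythroid and platelet markers 3 were higher (median 1.80), and of the 8 CD8 T and NK cell markers 1 was higher (median -0.32). The part of such shifts in the members' values was not tested.

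Among the polymerase I genes, both of its largest subunits fell. Polr1a, the largest catalytic subunit, was at 8.41 and 8.32 in control Teff and at 6.92 and 7.05 in anti-CD3-CD28 Teff, and fell by 1.38 ± 0.23 (SE; adjusted p = 0.00223). Polr1b, the second catalytic subunit, was at 7.24 and 7.03 and then at 5.59 and 5.74, and fell by 1.47 ± 0.21 (adjusted p = 0.000853). Neither pair of values overlapped with its control pair. In this comparison both control Teff arrays lay above both anti-CD3-CD28 Teff arrays in 37 of 47 members and in 29.2% of all genes. Polr1c, a subunit that polymerase I shares with polymerase III, was at 7.61 and 7.46 and then at 7.38 and 7.49 (difference -0.10, adjusted p = 0.816). The enzyme's subunits thus did not all pass the test.

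Of the nucleolar regulators, Mybbp1a, a nucleolar protein that binds MYB and joins polymerase I complexes, had the lowest adjusted p of the role. It was at 9.08 and 9.09 in control Teff and at 7.73 and 7.79 in anti-CD3-CD28 Teff, and fell by 1.32 ± 0.17 (adjusted p = 0.000413). Tcof1, the treacle protein that recruits polymerase I to its genes, was at 8.83 and 8.75 and then at 7.80 and 7.85, and fell by 0.97 ± 0.19 (adjusted p = 0.0048). Both genes had close replicates and groups that did not overlap. Myc was at 8.36 and 8.29 in control Teff and at 7.44 and 7.64 in anti-CD3-CD28 Teff, and fell by 0.79 ± 0.21 (adjusted p = 0.0289). Its call is lost with quantile normalization (adjusted p = 0.0861). Nolc1, a snoRNP chaperone, and Ddx21, a helicase of the nucleolus, did not pass the test, with differences of -0.29 and -0.55. The other row of Ddx21 had a difference of the other sign, 0.48, and did not pass either (adjusted p = 0.328).

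Npm1 and Ncl had positive differences, and Npm1 passed the test on one of its rows. Npm1, nucleophosmin, a chaperone of the granular nucleolus, was at 10.61 and 10.67 in control Teff and at 11.56 and 11.62 in anti-CD3-CD28 Teff, and rose by 0.95 ± 0.28 (adjusted p = 0.0415). Its other row, at 6.72 and 6.44 and then at 6.75 and 7.22, did not pass the test (difference 0.41, adjusted p = 0.431), so the rise rests on which row is read. Ncl, nucleolin, which binds nascent ribosomal RNA, was at 9.72 and 9.68 and then at 10.15 and 10.18 (difference 0.46 ± 0.21, adjusted p = 0.183). Its groups did not overlap, as was so for 34.4% of all genes in that direction. It passed with quantile normalization (adjusted p = 0.0258).

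The box H/ACA proteins were split. Dkc1, dyskerin, the pseudouridine synthase of these particles, was at 8.32 and 8.10 in control Teff and at 6.73 and 7.20 in anti-CD3-CD28 Teff, and fell by 1.24 ± 0.29 (adjusted p = 0.0127). Its partners Nhp2, Gar1 and Nop10 had differences of 0.23, 0.05 and -0.20, and Naf1, an assembly factor of the particle, one of -0.63, with adjusted p-values from 0.263 to 0.944. With quantile normalization the adjusted p of Dkc1 was 0.105. Nop58, a core box C/D protein, had a difference of -0.49 (adjusted p = 0.412); the other measured core protein, Nop56, is taken up with the snoRNA hosts.

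All 13 small subunit members had a negative difference, and 5 passed the test. Heatr1, a large scaffold protein of the processome, was at 8.50 and 8.56 in control Teff and at 6.79 and 7.55 in anti-CD3-CD28 Teff, and fell by 1.36 ± 0.27 (adjusted p = 0.00525). Utp20, another large processome scaffold, was at 7.34 and 7.55 and then at 5.91 and 6.39, and fell by 1.30 ± 0.21 (adjusted p = 0.00182). Rrp12, an export factor of the pre-40S particle, was at 6.97 and 6.70 and then at 5.67 and 5.62, and fell by 1.19 ± 0.19 (adjusted p = 0.00137). In all 3 genes both stimulated arrays lay below both fresh ones, and the spread between stimulated replicates was widest for Heatr1. Utp18, a processome repeat protein, fell by 0.83 ± 0.24 and Nob1, the nuclease that cuts the last spacer from the small subunit RNA, fell by 0.83 ± 0.19 (adjusted p of 0.0402 and 0.0121). The call of Utp18 is lost with quantile normalization (adjusted p = 0.0753). The other 8 members of this role had differences from -0.96 (Ddx10, a helicase) to -0.58 (Noc4l) and did not pass; apart from Ddx10 they lay between -0.70 and -0.58, nearer to 0 than those that passed.

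Of the 17 large subunit members 9 fell, Ppan rose, and 15 had a negative difference. Urb2, a nucleolar protein of early large subunit assembly, showed the largest fall of all members: 8.24 and 8.57 in control Teff against 6.50 and 6.45 in anti-CD3-CD28 Teff, a drop of 3.82-fold (log2 difference -1.93 ± 0.22, adjusted p = 0.000211). Noc3l, which with Noc2l escorts pre-60S particles, was at 7.77 and 7.76 and then at 6.23 and 6.54, and fell by 1.38 ± 0.20 (adjusted p = 0.000954). Nop2, a cytosine methyltransferase of the large subunit RNA, was at 8.30 and 8.34 and then at 6.63 and 7.31, and fell by 1.35 ± 0.29 (adjusted p = 0.008). These groups did not overlap for any of the 3 genes. Bop1, a partner of Pes1 and Wdr12 in a complex of large subunit processing, fell by 1.07 ± 0.19 (adjusted p = 0.00293), while Pes1 and Wdr12 had differences of -0.34 and -0.74 (adjusted p of 0.44 and 0.0605). The other members that fell were Wdr74 by 1.23, Noc2l by 1.07, Ftsj3 (an RNA methyltransferase) by 1.05, Rrp1b by 0.97 and Nop16 by 0.79, with adjusted p-values from 0.0062 to 0.0487. With quantile normalization Wdr74, Rrp1b and Nop16 did not pass (adjusted p of 0.0774, 0.185 and 0.204).

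**Figure D2:**
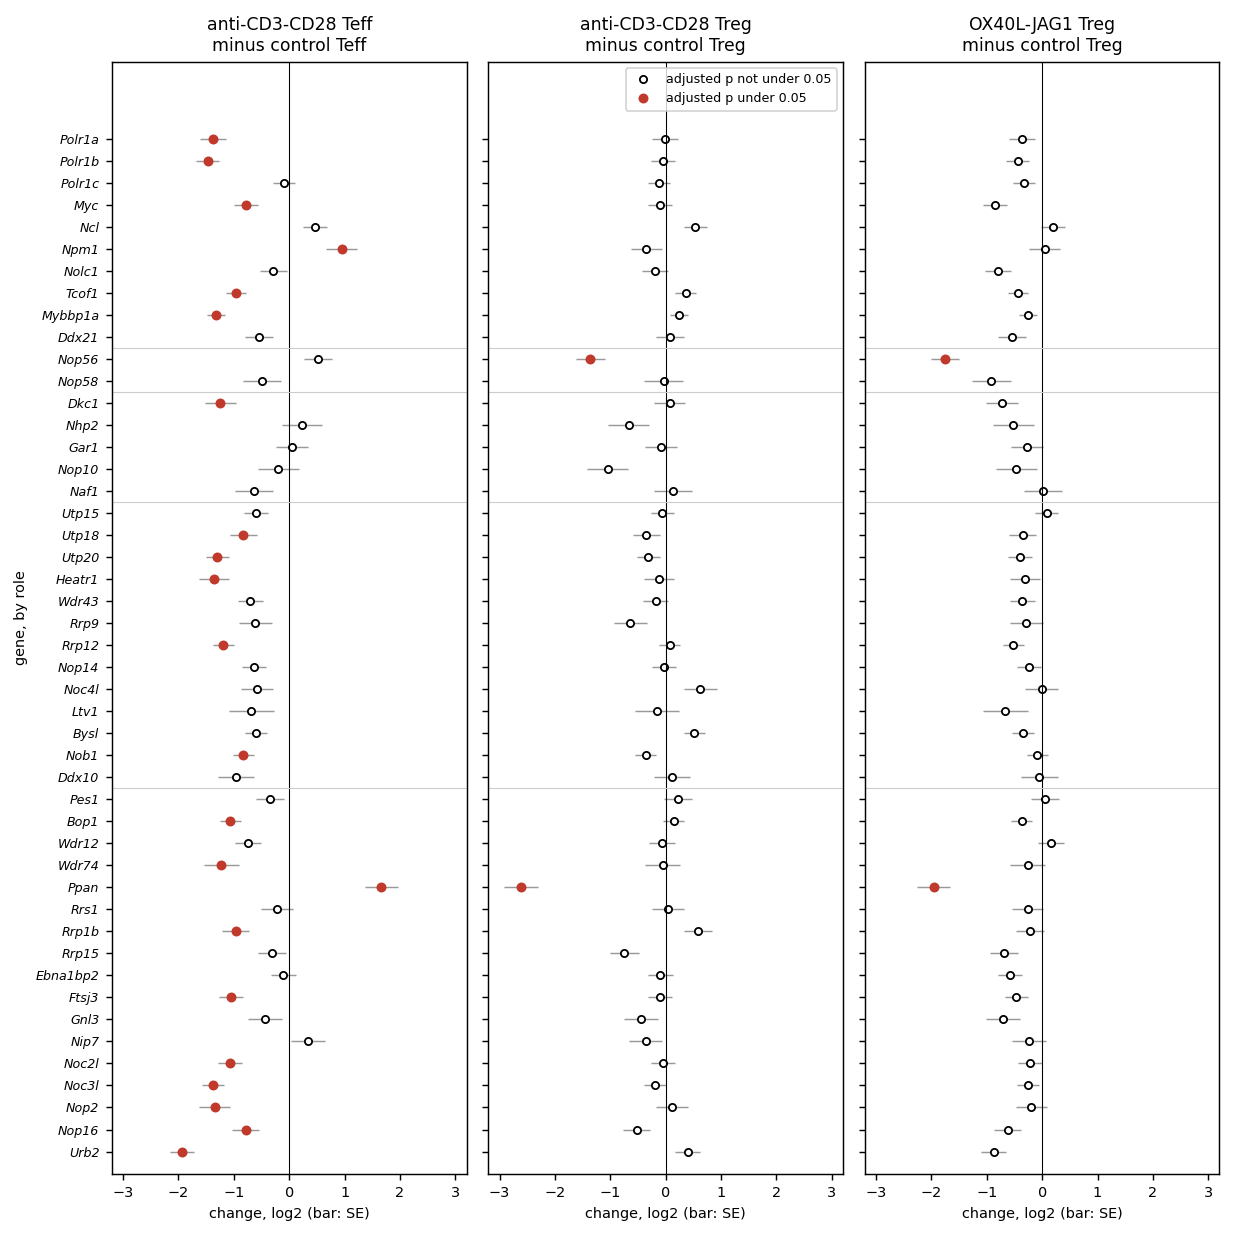
Log2 difference of each member, with its SE, between anti-CD3-CD28 Teff and control Teff (left), anti-CD3-CD28 Treg and control Treg (middle) and OX40L-JAG1 Treg and control Treg (right); filled points have an adjusted p under 0.05. On the left 20 members lie below 0 with filled points and 2 above, while the filled points of the other panels are Nop56 and Ppan.

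The members' promoters were read for the core E-box CACGTG, the preferred site of the MYC and MAX pair, which reads the same on both strands. The RefSeq promoter table (build GRCm38.p6, 250 bases before to 50 after each start) matched 42 of the 50 members; the others are Fbl, Npm1, Naf1, Bop1, Rrs1, Rrp12, Tcof1 and Myc. CACGTG was present in 8 of the 42, or 19.0%, against 8.09% of the 27025 genes of the table and 20.4% of 98 other genes of the pathway. It was present in 4 of 16 members that fell in anti-CD3-CD28 Teff and in 3 of 24 other measured members. These counts are small, and whether the motif goes with the fall was not tested. The windows of those 4 are shown with Urb2 and Polr1b, members with large falls whose promoters lack these letters. Each runs from 80 bases before the annotated start to 50 after it, on the strand of the gene, with the E-box in capitals.
Mybbp1a, chr11:72441247-72441376, plus strand: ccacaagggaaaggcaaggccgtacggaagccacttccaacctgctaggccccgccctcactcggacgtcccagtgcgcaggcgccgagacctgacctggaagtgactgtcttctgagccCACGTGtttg
Nop2, chr6:125131803-125131932, plus strand: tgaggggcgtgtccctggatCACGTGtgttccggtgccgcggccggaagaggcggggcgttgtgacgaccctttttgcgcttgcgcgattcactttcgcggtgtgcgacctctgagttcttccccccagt
Utp20, chr10:88826765-88826894, minus strand: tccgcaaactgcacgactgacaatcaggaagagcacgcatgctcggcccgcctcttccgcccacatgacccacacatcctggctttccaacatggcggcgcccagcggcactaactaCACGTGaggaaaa
Utp18, chr11:93885717-93885846, minus strand: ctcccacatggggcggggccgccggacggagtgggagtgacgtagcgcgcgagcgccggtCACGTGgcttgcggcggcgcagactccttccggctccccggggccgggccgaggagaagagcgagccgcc
Urb2, chr8:124021417-124021546, plus strand: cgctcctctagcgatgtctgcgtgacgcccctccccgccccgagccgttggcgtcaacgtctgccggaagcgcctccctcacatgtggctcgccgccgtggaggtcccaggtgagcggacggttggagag
Polr1b, chr2:129100916-129101045, plus strand: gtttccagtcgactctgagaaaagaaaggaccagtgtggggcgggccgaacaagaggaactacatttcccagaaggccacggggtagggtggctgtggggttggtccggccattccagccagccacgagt
The E-box begins at position -60 from the start in Nop2 and at -20 in Utp18, and at base 38 and base 41 of the transcript in Utp20 and Mybbp1a. Beside these windows stand the differences given above: -1.32 for Mybbp1a, -1.35 for Nop2, -1.30 for Utp20 and -0.83 for Utp18 with the motif, and -1.93 for Urb2 and -1.47 for Polr1b without it. The other matches were in Ltv1 (base 29), Pes1 (base 3), Wdr43 (base 18) and Tsr1 (base 25), and a match is a description of letters and not of binding.

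In Treg cells the same antibodies left most members near their fresh level on the deposited scale. Among all 47 members 2 fell (Nop56 and Ppan) and 0 rose in limma's test, beside 1.97% and 8.08% of all genes. At an unadjusted p under 0.05 the counts were 4 lower and 3 higher. The median member difference was -0.07 and 31 of 47 were negative. With quantile normalization every member but Bysl, Ncl, Noc4l, Rrp1b, Tcof1 and Urb2 had a negative difference. Myc was then at -0.445 and Polr1a at -0.317, and neither passed. Nop10 and Nob1 passed as lower there, beside Nop56 and Ppan, so the members' level depends on the normalization. Genes at the members' level moved up in this comparison, with a median of 0.29 and 16.9% higher. Leaving out the OX40L-JAG1 Teff pair gave 4 members higher and 6 lower, beside 14.8% and 6.75% of all genes, and leaving out control Treg replicate B or anti-CD3-CD28 Treg replicate 1 gave 1 lower.

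Single members show the small size of these differences in Treg cells on the deposited scale. Myc was at 8.28 and 8.19 in control Treg and at 8.24 and 8.03 in anti-CD3-CD28 Treg (difference -0.10 ± 0.21, adjusted p = 0.855). Polr1a was at 7.42 and 7.47 and then at 7.27 and 7.60 (difference -0.01 ± 0.23). Urb2 was at 7.07 and 6.85 and then at 7.58 and 7.13 (difference 0.40 ± 0.22, adjusted p = 0.344). The groups overlapped for Myc and Polr1a and lay apart by a small gap for Urb2, as they did for 30.2% of all genes in that direction. Mybbp1a was at 8.10 and 8.21 and then at 8.41 and 8.38 (difference 0.24), and Tcof1 at 7.95 and 7.99 and then at 8.36 and 8.30 (difference 0.36). Ncl, at 9.82 and 9.72 and then at 10.44 and 10.17 (difference 0.54 ± 0.21), passed the test once the OX40L-JAG1 Teff pair was left out (adjusted p = 0.0235), as did Bysl, an early and late factor of the small subunit, with 0.52, Rrp1b with 0.58 and Noc4l with 0.62. On the lower side Nop10, the smallest core protein of the box H/ACA particle, was at 10.29 and 10.52 and then at 9.10 and 9.63 (difference -1.04 ± 0.37, adjusted p = 0.114). It passed with quantile normalization (adjusted p = 0.0204) and with that pair left out (adjusted p = 0.00948).

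The difference between the responses of the cell types, tested as an interaction, passed for 13 members: 11 had a higher response in Treg and 2, Nop56 and Ppan, a lower one. Over all genes 10.1% had a higher and 2.94% a lower response, and at the members' level 25.5% had a higher one, so the members' share of 11 in 47 is near that of genes of their level. The median over members was 0.60 and over genes at their level 0.67. Of the 7 T cell markers 4 also had a higher response in Treg (median 1.25), as did 3 of the 12 myeloid and granulocyte markers (median 0.17), and their part was not tested. Urb2 had the largest positive value, 2.33 ± 0.32 (adjusted p = 0.00143), followed by Mybbp1a with 1.56 ± 0.24, Rrp1b with 1.55 ± 0.35 and Nop2 with 1.47 ± 0.40. Polr1b (1.43), Polr1a (1.38), Tcof1 (1.33), Rrp12 (1.26), Bop1 (1.21), Noc3l (1.18) and Bysl (1.12) made up the rest. In each of these 11 genes except Bysl the fall in Teff passed the test and the Treg difference did not; Bysl passed in neither. With quantile normalization Urb2 alone kept its positive call (adjusted p = 0.0139). With the OX40L-JAG1 Teff pair left out 20 members had a higher and 4 a lower response, beside 20.0% and 11.0% of all genes. The higher count was 3 without control Teff replicate 1 and 5 without control Teff replicate B. It was 4 without control Treg replicate B, anti-CD3-CD28 Teff replicate 1 or anti-CD3-CD28 Treg replicate B, and 6 without anti-CD3-CD28 Treg replicate 1, with 2 lower each time.

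The fresh cells differed too. Control Treg cells were lower than control Teff cells in 6 members and higher in 0, beside 2.51% and 1.34% of all genes. At an unadjusted p under 0.05 (limma) the counts were 17 and 2. The median member difference was -0.31, against -0.21 over genes at the members' level, of which 4.86% were lower. In the same comparison 3 of 8 B cell markers (median -0.58), 3 of 12 myeloid and granulocyte markers (median -0.76) and 2 of 8 CD8 T and NK cell markers (median -0.64) were lower in Treg and 0 were higher. The part of such a difference in cell makeup was not tested. The 6 were Urb2 (-1.45 ± 0.22), Polr1b (-1.20 ± 0.21), Rrp12 (-0.96 ± 0.19), Mybbp1a (-0.93 ± 0.17), Utp20 (-0.85 ± 0.21) and Tcof1 (-0.82 ± 0.19), with adjusted p-values from 0.00399 to 0.0499. Leaving out the OX40L-JAG1 Teff pair gave 17 lower and 2 higher, beside 8.93% and 5.59% of all genes. The lower count was 1 without control Teff replicate 1, 3 without control Treg replicate 1 and 0 without replicate B of either group. After anti-CD3-CD28, 5 members were higher in Treg than in Teff cells and 2 were lower, beside 9.03% and 2.89% of all genes. At the members' level 21.3% of genes were higher, so the share of 5 in 47 does not stand above that background. Treg cells were above Teff cells in Noc4l (1.11 ± 0.30), Rrp1b (0.94 ± 0.25), Urb2 (0.88 ± 0.22), Noc3l (0.81 ± 0.20) and Mybbp1a (0.64 ± 0.17), and below them in Ppan and Nop56. Of the 5, Urb2 and Mybbp1a had been called lower in fresh Treg cells. Of the 7 T cell markers 3 were also higher in Treg here (median 0.74), and their part was not tested. The OX40L-JAG1 Teff pair left out, there were 14 higher and 5 lower, beside 18.2% and 10.4%. The higher count was 1 without control Teff replicate 1 or B, 2 without anti-CD3-CD28 Teff replicate B, and 0 without anti-CD3-CD28 Teff replicate 1 or either anti-CD3-CD28 Treg array. The control Teff arrays enter the fall in Teff cells, the contrast of fresh cells and the interaction, so these comparisons are not independent. Urb2, Polr1b, Rrp12, Mybbp1a and Tcof1, which had a higher response in Treg, were also called lower in fresh Treg cells. Of these, Polr1b, Rrp12 and Tcof1 did not pass between the cell types after anti-CD3-CD28.

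The snoRNA hosts need separate reading. Many vertebrate snoRNAs are cut from introns of genes that serve the ribosome, and in the RefSeq gene table, which gives no strand here, snoRNA genes lie inside 8 of the 50 members: Ncl, Nop56, Nop58, Dkc1, Wdr43, Ppan, Gnl3 and Tsr1. Nop56 had 3 rows of its own on the array and Ppan, a factor of large subunit processing, had 2, and these rows disagreed. The Nop56 row with the highest mean, which was the one tested, was at 11.54 and 11.67 in control Teff, 10.78 and 11.40 in control Treg, 11.89 and 12.36 in anti-CD3-CD28 Teff and 9.49 and 9.98 in anti-CD3-CD28 Treg. A row of lower mean was at 9.79 and 9.85, 9.33 and 9.06, 8.59 and 8.87, and 9.76 and 9.91 in the same order of groups. So the tested row was lowest of these in Treg cells after stimulation, where the other row stood as high as in fresh Teff cells. The third row of Nop56 was at 7.66 and 7.92, 10.08 and 9.91, 9.41 and 9.19, and 7.95 and 7.32, and so was also low in stimulated Treg cells. The tested row fell by 1.36 ± 0.26 from control to anti-CD3-CD28 Treg (adjusted p = 0.00544), whereas the first of the other rows gave a difference of 0.64 (adjusted p = 0.149). In Teff cells the tested row gave a difference of 0.52 (adjusted p = 0.221), and that first other row fell by 1.09 (adjusted p = 0.0115). The third row had no test of its own.

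Ppan showed the same split. Its tested row was at 8.61 and 8.77 in control Teff and 10.49 and 10.21 in anti-CD3-CD28 Teff, and rose by 1.66 ± 0.30 (adjusted p = 0.00333). In Treg cells it was at 9.58 and 9.61 fresh and at 6.75 and 7.21 after anti-CD3-CD28, and fell by 2.61 ± 0.30 (adjusted p = 0.000186). The other Ppan row was at 7.68 and 7.48, then 6.75 and 6.78 in Teff, and fell by 0.82 (adjusted p = 0.0221), and in Treg it was at 7.02 and 7.28, then 6.54 and 6.56 (difference -0.60, adjusted p = 0.107). The interaction of the tested row was -4.27 ± 0.43 and that of the other row 0.22 (adjusted p = 0.668). The direction of the Ppan rise in Teff cells, of the Nop56 fall in Treg cells and of both interactions therefore depends on the row read. For Nop56 the third row, not tested, was lower in anti-CD3-CD28 Treg than in control Treg, as the tested row was. The Ppan fall in Treg cells kept its direction on the other row but did not pass there.

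Of the 10 snoRNA genes that lie inside members and have a row, 9 were lower in anti-CD3-CD28 Treg than in anti-CD3-CD28 Teff, as the tested Ppan row was. Snord92, which lies inside Wdr43, was at 7.96 and 7.77 in control Teff, 10.27 and 10.54 in control Treg, 10.95 and 11.17 in anti-CD3-CD28 Teff and 6.84 and 7.16 in anti-CD3-CD28 Treg. Its host Wdr43, a processome protein, was at 9.74 and 9.68, 9.16 and 9.31, 8.98 and 9.03, and 8.98 and 9.13 in the same groups. Over these 8 arrays the snoRNA row thus ranged from 6.84 to 11.17 and its host from 8.98 to 9.74. From control to anti-CD3-CD28 Treg, Snord92 fell by 3.41 ± 0.29 (adjusted p = 2.6e-05) and Snord11, inside Nop58, fell by 3.24 ± 0.22 (adjusted p = 7.46e-06). Of the same 10 snoRNA genes 9 fell in that comparison and 0 rose, and in Teff cells 8 rose and 0 fell (10 and 0, and 8 and 0, at an unadjusted p under 0.05, limma). The 7 hosts measured gave 0 rises and 2 falls in Treg cells and 1 rise and 1 fall in Teff cells. Of all 73 snoRNA genes tested, 89.0% fell in Treg cells and 74.0% rose in Teff cells, so the snoRNAs inside members did what most snoRNA rows did. Whether the tested rows of Nop56 and Ppan read a snoRNA was not tested, since the probes' positions were not used here.

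**Figure D3:**
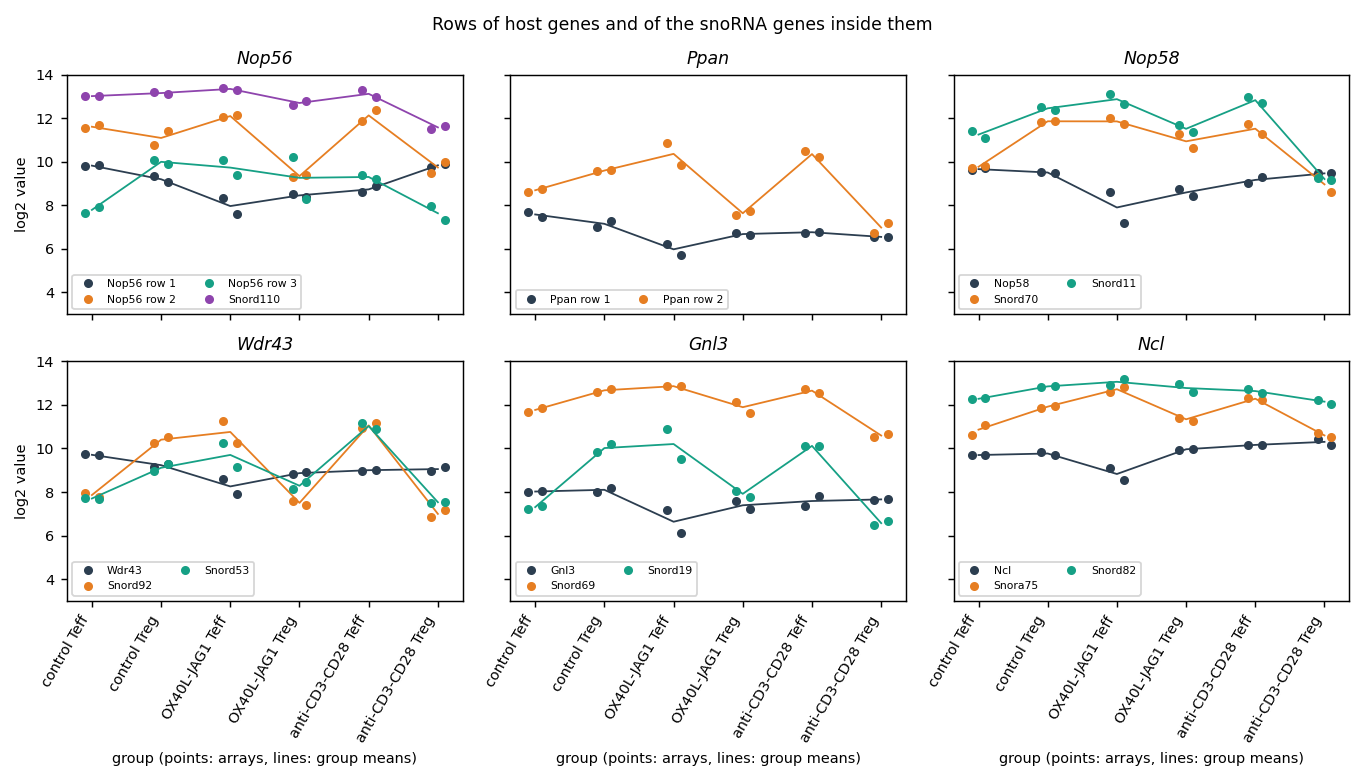
Log2 values on each array (points) and group means (lines) for host genes and for snoRNA genes inside them. The hosts are Nop56 and Ppan, with all rows of their own, and Nop58, Wdr43, Gnl3 and Ncl. A further row that Nop56 shares with Snord57 is not shown. Row 2 of Nop56 and of Ppan are the tested rows. They and the snoRNA rows are lower in anti-CD3-CD28 Treg than in anti-CD3-CD28 Teff, the snoRNA rows least so for Snord82 (difference -0.49). Row 1 of Nop56 runs the other way, with 8.59 and 8.87 in Teff and 9.76 and 9.91 in Treg. Row 3 of Nop56 is lower in Treg, with 9.41 and 9.19 in Teff and 7.95 and 7.32 in Treg. Row 1 of Ppan and the rows of the other hosts vary less between these groups.

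With OX40L-JAG1, Treg cells had lower values than fresh ones in most members, and few passed the test. The median member difference was -0.35 and 41 of 47 were negative, against a median of 0.09 over genes at the members' level. All 12 myeloid and granulocyte markers were above 0 in this comparison, with a median of 1.03, and 5 passed the test, while 2 of 4 erythroid and platelet markers passed, with a median of 1.74. The part of these other cells' RNA in the members' lower values was not tested. The 2 falls, of Nop56 by 1.75 ± 0.26 and Ppan by 1.96 ± 0.30 (adjusted p of 0.00549 and 0.00669), were those of the rows discussed above, and 0 members rose in limma's test, beside 0.559% and 0.996% of all genes; at an unadjusted p under 0.05 there were 13 falls and 0 rises. With the row of lowest number of each of these genes the count was 0. It was 1 without control Treg replicate 1 and 0 without control Treg replicate B or either OX40L-JAG1 Treg array. The OX40L-JAG1 Teff pair left out, 9 members were lower and 0 higher, beside 2.01% and 3.4% of all genes. Myc, at 8.28 and 8.19 in control Treg, was at 7.58 and 7.17 in OX40L-JAG1 Treg, and Urb2, at 7.07 and 6.85, was at 5.90 and 6.27. In neither gene did the groups overlap, and neither passed the test with all 12 arrays. Both fresh arrays lay above both cultured ones in 32 of 47 members and in 22.5% of all genes.

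Of the 47 members 3 were higher in Treg cells from the anti-CD3-CD28 culture than in those from the OX40L-JAG1 culture, a share near that of genes at the members' level. Urb2 was at 7.58 and 7.13 against 5.90 and 6.27 (difference 1.27 ± 0.22, adjusted p = 0.00494). Bysl was at 6.39 and 6.39 against 5.41 and 5.65 (difference 0.86 ± 0.20, adjusted p = 0.0232). Tcof1 was at 8.36 and 8.30 against 7.58 and 7.49 (difference 0.80 ± 0.19, adjusted p = 0.0269). The groups did not overlap in any of the 3, as was so in the same direction for 29 of 47 members and 27.8% of all genes. The count of 3 higher and 0 lower (12 and 0 at an unadjusted p under 0.05, limma) stands beside 4.73% and 1.18% of all genes, with 9.33% higher at the members' level and medians of 0.21 over members and 0.20 over those genes. Of the 12 myeloid and granulocyte markers 8 were lower in the anti-CD3-CD28 arrays (median -1.15), and their part was not tested. Leaving out the OX40L-JAG1 Teff pair gave 11 higher and 1 lower, beside 9.89% and 4.01%. The count was 1 higher without control Teff replicate 1 or B, or without replicate B of either Treg group, and 0 without replicate 1 of either.

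The OX40L-JAG1 Teff values are given with their compressed scale and myeloid markers in view. Against control Teff 35 members were lower and Ppan was higher, beside 26.9% and 20.0% of all genes and 72.4% lower at the members' level. Mybbp1a was at 6.67 and 6.54 (difference -2.48 ± 0.17) and Myc at 6.39 and 5.98 (difference -2.14 ± 0.21); with quantile normalization 23 members were lower and 1 higher. Anti-CD3-CD28 Teff was above OX40L-JAG1 Teff in 21 members and below it in 0 (25 and 0 at an unadjusted p under 0.05, limma), beside 18.9% and 9.15% of all genes and 50.2% higher at the members' level. OX40L-JAG1 Treg was above OX40L-JAG1 Teff in 23 and below it in 2, beside 24.6% and 16.5%, and 67.0% of genes at the members' level were higher. Quantile normalization left 6 higher and 1 lower in the former comparison and 4 higher and 9 lower in the latter. The size of the former count and the direction of the latter thus rest on the scale of those arrays. The former count was 32 higher without OX40L-JAG1 Teff replicate 1, 13 without anti-CD3-CD28 Teff replicate 1 and 5 without its replicate B, and the latter was 14 higher and 2 lower without OX40L-JAG1 Treg replicate 1.

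The rest of the pathway was read from lists of 122 further genes, of which 115 were measured. In anti-CD3-CD28 against control Teff 32 fell and 4 rose, beside 9.75% and 5.44% of all genes and 24.2% and 7.86% of genes at the members' level. The share that fell is thus near that of genes at the members' level, and the median of -0.30 is the same as over those genes. The large subunit list had 15 falls and 0 rises among 42 genes, led by Mdn1, the giant ATPase that strips factors from pre-60S particles (fell by 2.11 ± 0.19, adjusted p = 4.17e-05) and Nol9, a kinase of RNA ends (fell by 1.83 ± 0.17). The small subunit list had 12 falls and 1 rise among 40, led by the processome proteins Wdr46 (fell by 2.98 ± 0.19, adjusted p = 4.51e-06) and Nol6 (fell by 2.04 ± 0.23). Both lists held larger falls than any member. Among 9 further polymerase I genes, Taf1a and Taf1c, subunits of the promoter selectivity factor, fell by 1.38 and 1.23 and the polymerase I activator Ubtf fell by 0.65. Taf1d, of the same factor and a known snoRNA host, rose by 0.69 in Teff and fell by 2.06 ± 0.19 in Treg (adjusted p = 3.72e-05).

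Genes of other RNA machinery were counted in the same comparison, where 9.75% of all genes fell and 5.44% rose. The exosome list had 2 falls, Dis3 (by 1.21), its nuclease, and Exosc5 (by 1.08), a ring subunit, and 2 rises, the cofactors Mphosph6 (by 1.46) and C1d (by 0.92), among 15 genes. In Teff cells 0 of 9 further snoRNP genes passed. Polymerase II subunits had 3 falls and 1 rise among 12, with a median of -0.13, and polymerase III subunits the same among 10, with a median of -0.51. Of 15 MYC network genes 3 fell and 3 rose, with a median of 0.03, so the list as a whole did not move in 1 direction. The MYC antagonists Mxi1 (by 1.46 ± 0.21) and Mxd3 (by 1.09 ± 0.22) were among those that rose in Teff cells. They also rose in Treg cells (by 1.70 and 0.98), and Mxd1 rose there too (by 1.46 ± 0.24). In Treg cells 3 of the 15 were higher and 0 lower, with a median of 0.43. In Treg cells 3 of the 115 pathway genes rose, Ruvbl2 (an ATPase of snoRNP assembly, by 1.14), Eri1 (a nuclease, by 0.93) and Nop9 (by 0.71), and 2 fell, Taf1d and Mdn1 (by 1.31). Of all genes 8.08% rose and 1.97% fell there, and at the members' level 16.9% rose and 1.97% fell. Neither count of pathway genes stood above that background.

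**Figure D4:**
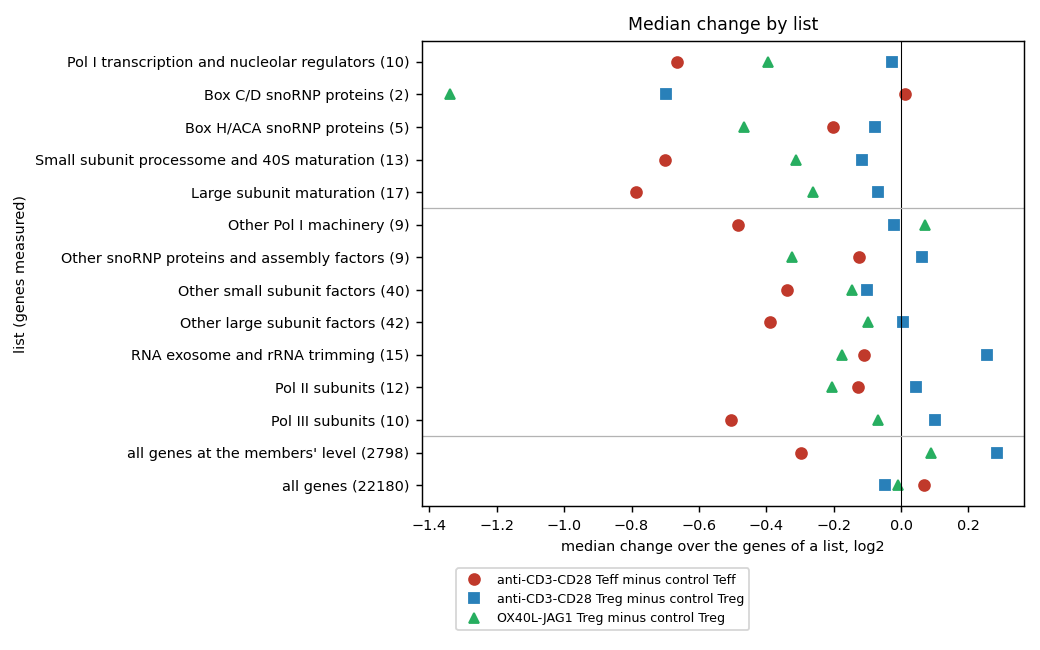
Median log2 difference over the genes of each list for 3 comparisons with fresh cells; the upper block holds the 5 roles of the members, the middle block further pathway, polymerase II and polymerase III genes, and the lower block all genes at the members' level and all genes. In anti-CD3-CD28 Teff the large subunit members have the lowest median, -0.79, against -0.39 for the other large subunit factors and -0.30 for genes at the same level.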

How the data were processed

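The deposited table holds log2 values that the authors made with RMA, per the submitters' processing notes (version not given in the sources used here). The 41345 rows were used as deposited, and 22180 genes on rows with 1 gene symbol were tested, with the row of highest mean where a gene has several. The annotation's build and other processing steps are not given in the sources used here. limma 3.58.1 (R 4.3.3; lmFit, eBayes) fitted 1 mean for each of the 6 groups over 12 arrays, leaving 6 residual degrees of freedom, with two-sided p-values adjusted by Benjamini-Hochberg over all genes and a threshold of 0.05. The fit was tested on simulated data. The number of arrays limits the precision. Genes at the members' level are those with a mean log2 value from 6.74 to 7.77. The members, lists and tests were chosen with earlier results of these data known, and the snoRNA counts and the row comparison after the rows were seen. Every member may be named; other genes are those with the largest change past the threshold, at most 4 per list. The difference between replicates B and 1 was correlated between groups over all genes. The correlations ran from -0.0693 to 0.182 over 15 pairs of groups, so same-named arrays shared little shift. They cannot tell whether same-named arrays come from the same animals or dish, which the labels do not give. The main fit did not pair the arrays. Alternatives were a replicate block, quantile normalization, a common median, trend and robust eBayes, array weights, the mean of all rows, dim genes left out, fits on the arrays compared, fits without OX40L-JAG1 Teff and without each array, and, added after the data were seen, the row of lowest number.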

Additional observations from a re-analysis of the deposited data

Results flagged for a closer look

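The response to anti-CD3-CD28 differed between Treg and Teff cells for 13 members by the test of that difference (limma interaction, response of Treg minus response of Teff, log2). The values were 2.331 for Urb2, 1.564 for Mybbp1a, 1.547 for Rrp1b, 1.465 for Nop2, 1.426 for Polr1b, 1.376 for Polr1a, 1.326 for Tcof1, 1.261 for Rrp12, 1.211 for Bop1, 1.18 for Noc3l and 1.116 for Bysl, all higher in Treg. Nop56 (-1.878) and Ppan (-4.273) were lower in Treg on the rows tested, and the rows of lowest number of these genes gave 1.728 and 0.216. The third row of Nop56 had no test of its own. It was at 10.08 and 9.91 in control Treg and at 7.95 and 7.32 in anti-CD3-CD28 Treg. In Teff it was at 7.66 and 7.92 and then at 9.41 and 9.19, so it moved as the tested row did. Over all genes tested 10.1% had a higher response in Treg and 2.94% a lower one, and of genes at the members' level 25.5% had a higher one, so the members' share is near that background. With quantile normalization Urb2 was the one member that kept a higher call, while Nop56 and Ppan kept their lower calls. Urb2, Polr1b, Rrp12, Mybbp1a and Tcof1 were also called lower in fresh Treg than in fresh Teff cells, so the cell types began from unlike levels.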

How the results depend on the processing

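Leaving out 1 array at a time moved the number of members called, in either direction, to between 1 and 10 for anti-CD3-CD28 Treg against control, 10 and 35 for anti-CD3-CD28 Teff against control, 0 and 9 for OX40L-JAG1 Treg against control, 33 and 45 for OX40L-JAG1 Teff against control, 0 and 12 for anti-CD3-CD28 against OX40L-JAG1 Treg, 5 and 32 for anti-CD3-CD28 against OX40L-JAG1 Teff, 0 and 19 for control Treg against control Teff, 16 and 34 for OX40L-JAG1 Treg against Teff, 2 and 19 for anti-CD3-CD28 Treg against Teff, and 5 and 24 for the interaction.

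In that same order of comparisons, and for those that moved by over 1.5 times, quantile normalization gave 4 (first), 1 (anti-CD3-CD28 against OX40L-JAG1 Treg), 7 (the same in Teff), 3 (control cells), 13 (OX40L-JAG1 cells), 3 (anti-CD3-CD28 cells) and 3 (interaction). Array weights gave 10, 34 and 7 for the first 3 comparisons with control, 15 and 6 between the cultures in Treg and Teff, 23, 13 and 17 between the cell types (fresh, then each culture), and 25 for the interaction. Fits on the arrays compared gave 10 and 5 for anti-CD3-CD28 and OX40L-JAG1 Treg against control, 10 and 0 between the cultures in Treg and Teff, 18, 2 and 15 between the cell types, and 25 for the interaction. Without the OX40L-JAG1 Teff arrays the counts were 10, 35 and 9 against control, 12 between the Treg cultures, 19 in control cells, 19 in anti-CD3-CD28 cells and 24 for the interaction. The mean of all rows gave 1 for OX40L-JAG1 Treg against control, and the row of lowest number, chosen after the data were seen, gave 0 there and 0 for anti-CD3-CD28 Treg against control. With the replicate block the counts were 2, 21, 2, 35, 3, 19, 5, 24, 7 and 14, within 1.5 times of those reported.

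Of the single values under these alternatives, 29 turned their sign while called in the main or the alternative fit. Without such a turn, 476 lost and 451 gained a call. The other 9243 kept their call or their lack of one. A turn of sign in a value called in neither fit is counted among these 9243. With quantile normalization OX40L-JAG1 Treg against Teff turned for Polr1a (-0.839), Nolc1 (-0.76), Ebna1bp2 (-0.719), Wdr43 (-0.472), Noc2l (-0.097), Nob1 (-0.059) and Bop1 (-0.043), anti-CD3-CD28 against OX40L-JAG1 Teff turned for Wdr43 (-0.146), Noc2l (-0.095), Bop1 (-0.015) and Nolc1 (-0.013), and OX40L-JAG1 Teff against control turned for Nop16 (0.204), Wdr12 (0.124) and Ncl (0.117). With the row of lowest number Nop56 gave 0.637 and -1.091 for anti-CD3-CD28 Treg and Teff against control, -1.863 for OX40L-JAG1 Teff against control, 0.494 and 1.098 for Treg against Teff with OX40L-JAG1 and anti-CD3-CD28, and 1.728 for the interaction. Ppan gave -0.817 and -1.601 for anti-CD3-CD28 and OX40L-JAG1 Teff against control, 0.785 between them, 0.701 for OX40L-JAG1 Treg against Teff and 0.216 for the interaction, and Ddx21 gave 0.397 and -0.023 for OX40L-JAG1 Teff against control and Treg against Teff. Nhp2, whose OX40L-JAG1 Teff arrays disagreed, ran from -0.882 to 0.657 for OX40L-JAG1 Teff against control and from -0.87 to 0.669 for OX40L-JAG1 Treg against Teff when replicate 1 or B of OX40L-JAG1 Teff was left out. The cause was not tested, apart from the row of lowest number, which reads other probes. Members lay above the lowest array median, 4.87, in every group mean.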
